A study of Mus musculus with 16 samples.

Results

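The listed transcripts at 10 nuclear genes of the mitochondrial respiratory chain were followed through mouse livers on 4 feeding regimes. The genes were Ndufs4, Ndufa6 and Ndufv2 of complex I, Sdha, Sdhb and Sdhc of complex II, Uqcrq of complex III, and Atp5b, Atp5c1 and Atp5l of complex V. This list of genes was chosen with earlier results of these data known. A transcript was taken when its deposited interval overlapped the gene body in GENCODE M21 (GRCm38) or lay within 5 kb of it, a rule that used position and no expression value. It found 37 of the 51024 listed transcripts, of which 33 carry NONCODE IDs and 4 Ensembl IDs. Ndufs4 had 9 of them, Sdha and Ndufa6 5 each, Ndufv2 4, Sdhb, Atp5b and Atp5l 3 each, Sdhc and Atp5c1 2 each, and Uqcrq 1. Protein-coding transcripts are not in the files, so a gene symbol given with a transcript names a position and not the level of the coding mRNA. How strand was handled could not be read from the labels or files, and reads of a listed transcript cannot be told apart from reads of the gene it overlaps.

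Total RNA from livers of C57BL/6J mice was sequenced in 16 libraries, 4 for each regime, and the label for age reads postnatal day 21 in all of them. One group received ordinary feed and one high-fat feed, and the other two received high-fat feed together with a drug by gavage, either resveratrol at 100 mg/kg per day or metformin at 200 mg/kg per day. Resveratrol is a plant polyphenol, and metformin is a glucose-lowering drug for which complex I is one of the described targets. The labels give no sex, cage or batch. The titles of all high-fat samples share 1 prefix while each other group carries more than 1, and whatever that prefix marks cannot be told apart from high-fat feed. Nothing in the labels beyond the separate samples describes the replicates further, so p-values measure only the spread between these libraries.

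The respiratory chain passes electrons from NADH, through complex I, and from succinate, through complex II, to ubiquinone and on through complexes III and IV to oxygen. The proton gradient built on the way drives ATP synthesis in complex V. In hepatocytes it oxidises the NADH and FADH2 released by fatty acid oxidation and the citric acid cycle, and most of its subunits are encoded in the nucleus.

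The intervals of 18 of the 37 transcripts lie wholly inside the gene body, and 7 more overlap it and run past its end. The other 12 lie outside it, 6 upstream and 6 downstream. A single interval as long as the listed transcript describes 27 of them, while 10 consist of several parts whose inner boundaries are not in the files. Wholly inside 1 intron of the gene's reference transcript lie 13. The map of positions shows these stretches along each gene.

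**Figure D1:**
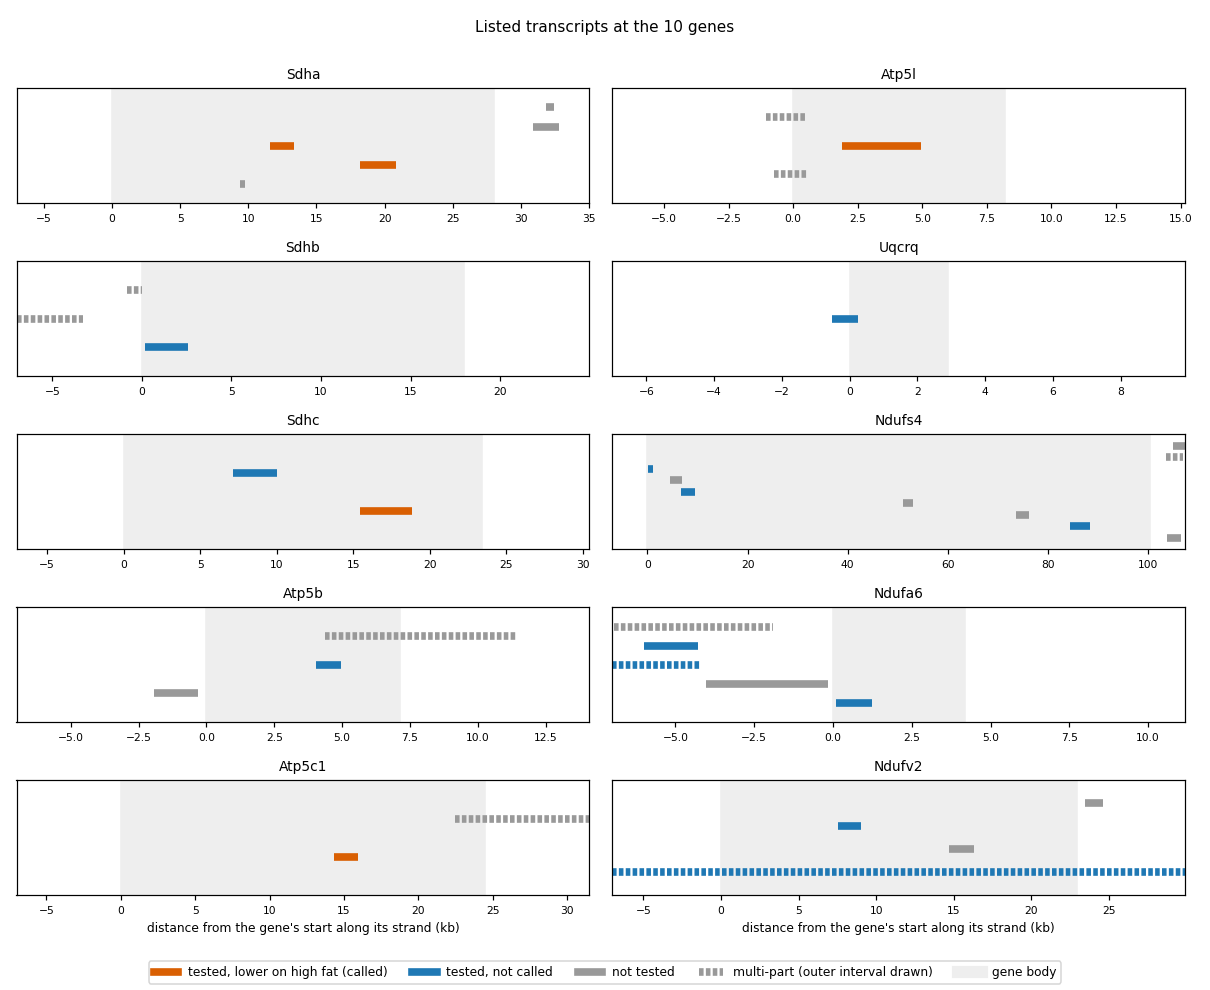
Position of the 37 listed transcripts along the 10 genes, in kb from each gene's start along its strand, with the gene body shaded. Panels end 7 kb outside the gene, so longer intervals, such as the transcript that spans all of Ndufv2, run past the edge. The 5 orange stretches, called lower on high-fat feed, all lie inside gene bodies.

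Sequence is given for 4 of the main intervals to show what annotated exon or intron they hold. It does not show which RNA was counted there. The first is Ndufa6, where NONMMUT024371.2 (chr15:82353097-82354237, minus strand, GRCm38) has exactly the interval of a transcript that GENCODE lists under Ndufa6 itself, running from exon 1 into intron 1. In the stretch chr15:82354001-82354120, capitals mark the end of exon 1 and lower case the start of the intron kept in that transcript.
Ndufa6 exon 1 and intron 1: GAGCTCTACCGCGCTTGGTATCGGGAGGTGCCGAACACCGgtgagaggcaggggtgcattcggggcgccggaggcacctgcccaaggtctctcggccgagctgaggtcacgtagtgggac
The second is Sdha, where both abundant intervals hold 1 coding exon with intron on either side. NONMMUT018252.2 contains exon 10 (chr13:74331299-74331470, minus strand) and NONMMUT018253.2 contains exon 6 (chr13:74337391-74337539, minus strand). Capitals mark exon bases, which are shared with the Sdha mRNA.
Sdha exon 10: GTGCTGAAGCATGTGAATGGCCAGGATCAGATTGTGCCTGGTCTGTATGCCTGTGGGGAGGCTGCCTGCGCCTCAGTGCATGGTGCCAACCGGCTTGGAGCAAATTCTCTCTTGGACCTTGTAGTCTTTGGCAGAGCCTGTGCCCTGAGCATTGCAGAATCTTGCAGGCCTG
Sdha exon 6: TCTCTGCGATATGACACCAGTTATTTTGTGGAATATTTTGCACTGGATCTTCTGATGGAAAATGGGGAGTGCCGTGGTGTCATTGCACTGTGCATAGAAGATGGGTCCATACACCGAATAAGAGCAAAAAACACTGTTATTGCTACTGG
The third is Atp5l, where NONMMUT068892.2 (chr9:44915808-44918866, minus strand) lies in intron 1 of the reference transcript and inside a longer transcript that GENCODE lists under Atp5l. Its first 120 bases on the strand of the gene (chr9:44918747-44918866) hold no exon of the reference transcript and are given in lower case.
Atp5l intron 1: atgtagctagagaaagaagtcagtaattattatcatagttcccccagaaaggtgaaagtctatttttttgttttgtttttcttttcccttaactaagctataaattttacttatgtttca
These stretches are from GENCODE M21 transcripts. The intervals in Sdhc (chr1:171131775-171135184, intron 5 of 5, and chr1:171140603-171143433, intron 3 of 5) and in Atp5c1 (chr2:10064537-10066148, intron 3 of 9) hold no annotated exon of their gene.

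Promoters were read from RefSeq (GRCm38.p6) for 8 of the 10 genes, with 9 start sites. The 250 bases before each start were searched on both strands for short cores of factors known to act on nuclear respiratory genes. The NRF-1 core GCGCATGC was found at 3 genes, Sdhb, Atp5l and Ndufa6, and in 2.256% of all 32851 promoters. The ETS core CCGGAAG, bound by GABP, was found at Atp5l, and in 6.907% of all promoters. The ERR half-site AAGGTCA was also found at Atp5l, and in 4.079% of all promoters. A match is a description of the letters and not of binding. The windows of Atp5l and Ndufa6 that hold matches are shown because they place these letters, with each match in capitals as read on the strand of the gene. They are chr9:44920913-44920992 and chr9:44920743-44920782 for Atp5l, and chr15:82354332-82354401 for Ndufa6, all on the minus strand.
Atp5l, upstream window: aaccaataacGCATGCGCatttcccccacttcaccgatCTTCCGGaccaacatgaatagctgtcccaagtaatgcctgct
Atp5l, window at the start: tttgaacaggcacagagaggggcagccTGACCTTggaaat
Ndufa6, window: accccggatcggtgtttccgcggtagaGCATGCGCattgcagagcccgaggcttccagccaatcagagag

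Values are FPKM, reads scaled by listed transcript length and by library total, as the authors deposited them. Library totals ran from 17.2 to 31.1 M (mega) reads, and 15.7% to 23.6% of a library fell on listed transcripts. The median ratio of a library to the geometric-mean library was 1.08 to 1.15 with ordinary feed and 0.691 to 1.05 on high fat, so deposited values of features in general were lower on high fat. The fourth high-fat library stood apart, with 0.691 against 0.885 to 1.15 in the other 15 libraries. Values divided by this ratio, called scaled values below, are therefore given beside the deposited ones, and results are given with and without that library.

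A feature was tested if it reached 1 FPKM in at least 4 libraries, which 17 of the 37 transcripts did, with at least 1 at each of the 10 genes. The 20 others had mean values of 0.00702 to 0.847 FPKM over the 16 libraries and no single value above 1.33 FPKM, and 10 of them lie outside the gene. Closest below the limit was NONMMUT019413.2 in Ndufs4, which reached 1 FPKM in 3 libraries with a mean of 0.847 FPKM. Closest above it was NONMMUT003759.2 in Sdhc, which reached it in 5 libraries with a mean of 0.862 FPKM.

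With ordinary feed, the levels per length ran from the Ndufa6 transcript at 6.38 ± 0.657 FPKM (SD, n = 4) down to about 1 FPKM. The Atp5c1 intron followed with 3.96 ± 0.426 FPKM, below the Ndufa6 transcript by more than the spread of either. Next came a run of neighbours that overlapped within their spread. These were Sdha NONMMUT018253.2 (2.69 ± 0.327 FPKM) and NONMMUT018252.2 (2.47 ± 0.373 FPKM), Atp5l (2.28 ± 0.432 FPKM), Atp5b (2.24 ± 1.28 FPKM) and Sdhb (1.95 ± 0.305 FPKM). The other 10 tested features had means of 0.952 to 1.83 FPKM. Levels of the Sdha, Sdhc, Atp5c1, Atp5l and Ndufa6 features in every library are in the plot of values by library.

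**Figure D2:**
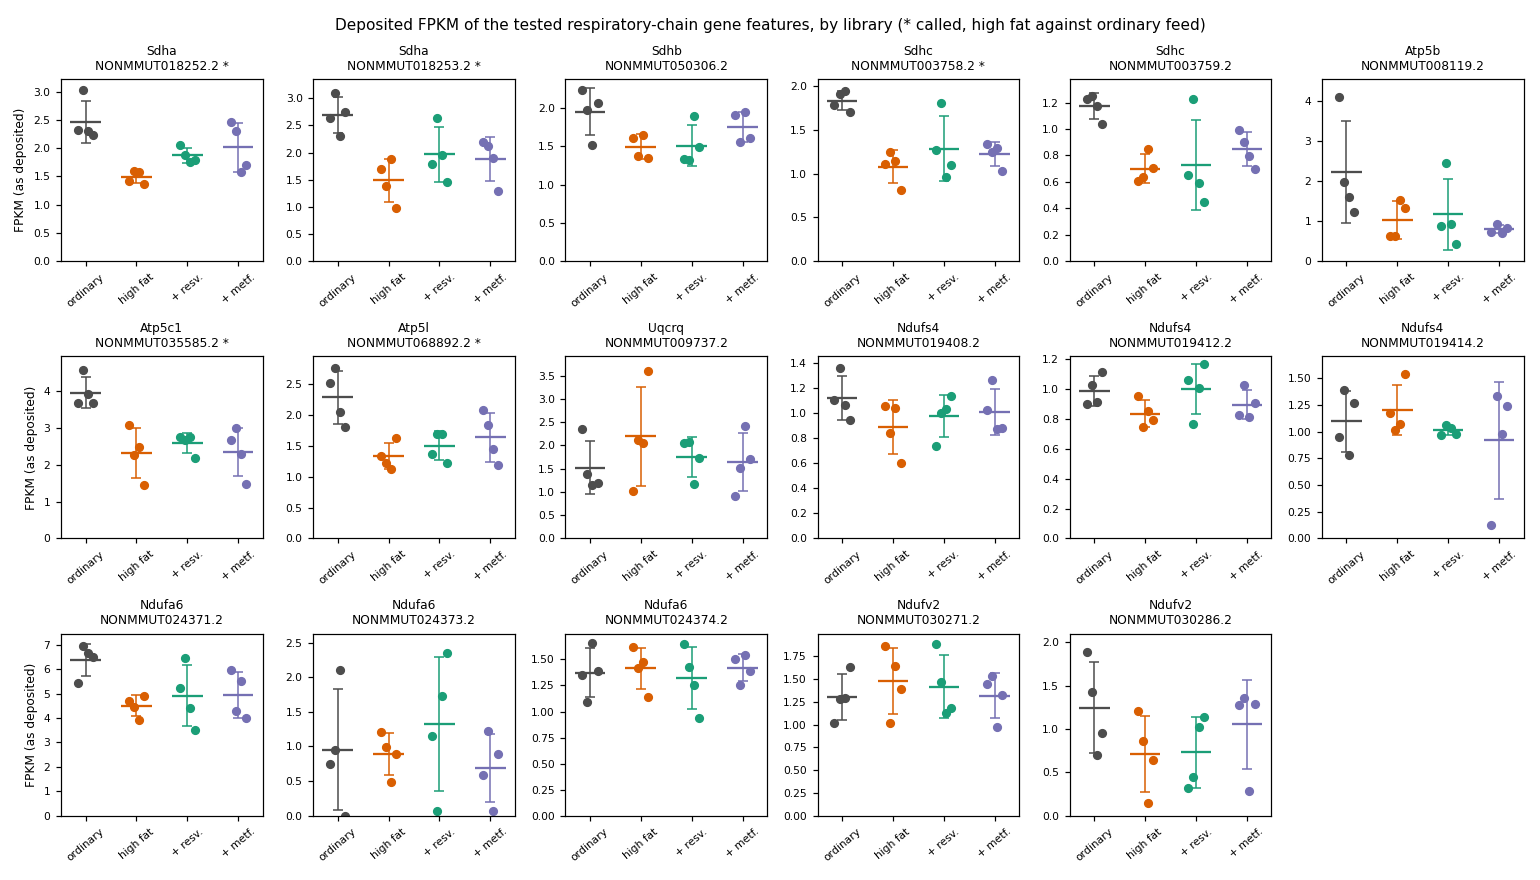
Deposited FPKM of the 17 tested features in each of the 16 libraries, by group, with the mean and SD of 4 libraries. In the panels marked with a star, all 4 high-fat points lie below all 4 ordinary-feed points.

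High-fat feed was compared with ordinary feed to ask what the diet changed. Of the 17 tested features, 5 were lower on high fat and none was higher in the limma test (adjusted p under 0.05 over 7413 features). The 5 lie at 4 genes, Sdha (both features), Sdhc, Atp5c1 and Atp5l, and their high-fat means were 55.2% to 60.6% of the ordinary-feed means. Among all tested features 11.8% were called lower and 2.83% higher. With scaled values 2 of the 17 were called lower, Sdha NONMMUT018253.2 and Atp5c1, where 4.94% of all features were. The median log2 fold change of the 17 was -0.36 with deposited and -0.18 with scaled values, against -0.16 and 0.00 for all features. Since the genes were chosen with earlier results of these data known, these shares and medians do not test whether the members differ from other features. Of the 17, 14 are single intervals inside coding genes. The 5 called features are among these 14, of a kind in which 12.8% of features were called lower with deposited values and 5.36% with scaled values. Fewer cells of a type and less RNA per cell cannot be told apart in these bulk samples.

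Complex I had 8 tested features, and none was called. Ndufa6 encodes an accessory subunit of the LYR family that holds a mitochondrial acyl carrier protein on the complex. The feature at its exon 1 and intron 1, NONMMUT024371.2, measured 5.44, 6.93, 6.68 and 6.49 FPKM with ordinary feed and 4.72, 4.45, 3.91 and 4.91 FPKM on high fat. The groups did not overlap, but the log2 fold change of -0.42 (SE 0.16) had an adjusted p of 0.0829 by limma. With scaled values the groups overlapped and the change was -0.18 (SE 0.18). The 2 features upstream of Ndufa6, which overlap each other, differed by 0.06 (SE 0.36) and 0.03 (SE 0.11) on the log2 scale. One of these, NONMMUT024373.2, varied from a listed 0 to 2.11 FPKM among the ordinary-feed libraries alone.

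Ndufs4 encodes an accessory subunit of the peripheral arm that is needed late in complex I assembly, and its loss causes Leigh syndrome in humans. Its 3 tested features were NONMMUT019408.2 in intron 4, NONMMUT019412.2 in intron 1 and NONMMUT019414.2 at exon 1. The intron 4 feature measured 1.12 ± 0.175 FPKM with ordinary feed and 0.885 ± 0.215 FPKM on high fat (SD, n = 4 each). The intron 1 feature measured 0.988 ± 0.101 and 0.836 ± 0.0921 FPKM, and the exon 1 feature 1.10 ± 0.284 and 1.20 ± 0.234 FPKM. Groups overlapped at all 3, with log2 fold changes of -0.17 (SE 0.11), -0.11 (SE 0.09) and 0.07 (SE 0.18).

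Ndufv2 encodes a core iron-sulfur subunit of the module that oxidises NADH. The interval of NONMMUT030271.2 also covers 6 other coding genes, and its level was 1.31 ± 0.251 FPKM with ordinary feed and 1.48 ± 0.363 FPKM on high fat (SD, n = 4 each). NONMMUT030286.2, in intron 1, spread widely within groups, with 1.89, 1.43, 0.698 and 0.959 FPKM on ordinary feed and 1.20, 0.856, 0.146 and 0.637 FPKM on high fat. As few as 5 reads lay behind its values, and the log2 fold change of -0.40 (SE 0.25) was not called.

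Complex II, which is also succinate dehydrogenase of the citric acid cycle, had 5 tested features, all with negative log2 fold changes and 3 of them called lower. Deposited values fell in general, with a median change of -0.16 over all tested features and 11.8% of them called lower. One of the features not called, in Sdhc intron 3, passed the filter only with ordinary-feed libraries counted. Sdha encodes the flavoprotein that oxidises succinate. At exon 6 of Sdha (NONMMUT018253.2, chr13:74336912-74338649), ordinary-feed libraries measured 2.64, 3.09, 2.30 and 2.74 FPKM and high-fat libraries 1.70, 1.39, 1.89 and 0.970 FPKM. All high-fat values lay below all ordinary-feed values, with a log2 fold change of -0.58 (SE 0.15, limma adjusted p = 0.0217). After scaling the groups still did not overlap, and the change was -0.40 (SE 0.11, limma adjusted p = 0.0337). Without the fourth high-fat library the deposited change was -0.47 with an adjusted p of 0.0577 by limma, and without the second ordinary-feed library it was -0.53 with 0.0623.

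At exon 10 of Sdha (NONMMUT018252.2, chr13:74329427-74332057) the values were 2.31, 3.02, 2.30 and 2.23 FPKM with ordinary feed and 1.43, 1.60, 1.58 and 1.37 FPKM on high fat. The groups did not overlap, and the log2 fold change was -0.47 (SE 0.11, limma adjusted p = 0.0138). Between 79 and 204 reads lay behind each value. Scaling brought the groups into overlap, through a scaled value of 1.98 FPKM in the fourth high-fat library, and the call was lost at a change of -0.28 (limma adjusted p = 0.0768). The call held without that library in deposited values (-0.45, limma adjusted p = 0.0324). With both changes together, scaled and without that library, it was -0.34 with an adjusted p of 0.0504 by limma.

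Sdhc encodes one of the membrane anchors, which holds haem and part of the ubiquinone site. Intron 5 of Sdhc (NONMMUT003758.2) gave 1.79, 1.91, 1.94 and 1.70 FPKM with ordinary feed and 1.11, 1.25, 1.14 and 0.815 FPKM on high fat. The groups did not overlap in deposited or scaled values. The log2 fold change was -0.45 (SE 0.11, limma adjusted p = 0.0168), and with scaled values -0.29 (SE 0.10, limma adjusted p = 0.0652). Without the fourth high-fat library the deposited change was -0.39 (limma adjusted p = 0.0434). In intron 3 (NONMMUT003759.2) ordinary feed gave 1.23, 1.25, 1.18 and 1.04 FPKM and high fat 0.608, 0.636, 0.850 and 0.708 FPKM. Those groups did not overlap either, and the change of -0.36 (SE 0.12) had an adjusted p of 0.0595 by limma. The intron 3 feature reached 1 FPKM in all 4 ordinary-feed libraries and in 1 other library, so it entered the test through the group where it is high, and its lower level gives no support to the intron 5 feature.

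Sdhb encodes the iron-sulfur subunit that carries electrons between the other subunits. Its feature at exon 1 (NONMMUT050306.2, chr4:140961389-140963796) measured 2.24, 1.97, 1.52 and 2.06 FPKM with ordinary feed and 1.61, 1.37, 1.65 and 1.34 FPKM on high fat. The groups overlapped and the change of -0.24 (SE 0.10) was not called (limma adjusted p = 0.123). With scaled values it was -0.06 (SE 0.10).

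Complex III was represented by Uqcrq, a small subunit near the ubiquinone site. Its feature (NONMMUT009737.2, chr11:53430572-53431357) covers exon 1 and sequence upstream and also overlaps Gdf9, a growth factor gene known from oocytes. The values were 2.36, 1.39, 1.15 and 1.20 FPKM with ordinary feed and 1.01, 2.13, 2.06 and 3.59 FPKM on high fat. The groups overlapped, and the log2 fold change of 0.30 (SE 0.23), the highest of the 17, was not called (limma adjusted p = 0.381). Its highest value came from the fourth high-fat library, and without that library the scaled change went from 0.50 to 0.20.

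Complex V, the ATP synthase, had 3 tested features, all with negative log2 fold changes and 2 of them called lower. Over all tested features the median change was -0.16 and 11.8% were called lower. The third feature, at Atp5b, passed the filter only with ordinary-feed libraries counted. Atp5c1 encodes the gamma subunit, the rotating central stalk. Intron 3 of Atp5c1 (NONMMUT035585.2) measured 3.67, 4.57, 3.93 and 3.67 FPKM with ordinary feed and 3.09, 2.25, 2.47 and 1.44 FPKM on high fat. The groups did not overlap in deposited or scaled values, with changes of -0.60 (SE 0.16, limma adjusted p = 0.0269) and -0.40 (SE 0.11, limma adjusted p = 0.0383). The call was lost without the fourth high-fat library (-0.46, limma adjusted p = 0.0673) and without the second ordinary-feed library (-0.54, limma adjusted p = 0.0738). It was also lost without the second high-fat or the third ordinary-feed library, at limma adjusted p-values of 0.0524 and 0.0568.

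Atp5l encodes subunit g, a small membrane subunit of the ATP synthase where its dimers meet. In intron 1 of Atp5l (NONMMUT068892.2) ordinary feed gave 2.52, 2.75, 2.05 and 1.80 FPKM and high fat 1.34, 1.23, 1.13 and 1.62 FPKM. All high-fat values were lower, with a log2 fold change of -0.49 (SE 0.13, limma adjusted p = 0.0224). With scaled values the fourth high-fat library reached 2.35 FPKM, the groups overlapped and the change was -0.30 (SE 0.14, limma adjusted p = 0.179). Scaled and without that library it was -0.45 with an adjusted p of 0.0307 by limma, the one member called in that setting. The deposited call held without the fourth high-fat library (-0.55, limma adjusted p = 0.026). It was lost without the second or the third high-fat library (limma adjusted p = 0.051 and 0.0525) and without the first or the second ordinary-feed library (limma adjusted p = 0.0528 and 0.068).

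Atp5b encodes the catalytic beta subunit. Its feature (NONMMUT008119.2, chr10:128087300-128088218) lies in intron 7 of the reference transcript, with 538 bases in exons of other Atp5b transcripts. It had the lowest log2 fold change of the 17, -0.63, but with an SE of 0.27 it was not called (limma adjusted p = 0.12). One ordinary-feed library stood at 4.10 FPKM while the other three had 1.99, 1.61 and 1.24 FPKM, and high fat gave 0.624, 0.630, 1.52 and 1.34 FPKM. The plot of changes with standard errors sets these features side by side.

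**Figure D3:**
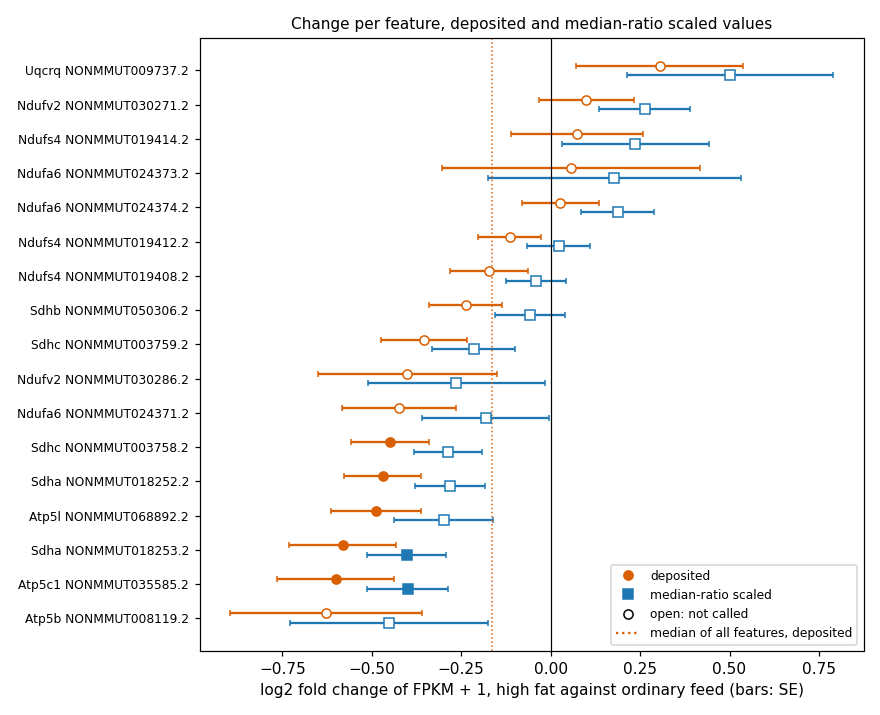
Log2 fold change of FPKM + 1, high fat against ordinary feed, for the 17 tested features, with SE, for deposited (orange circles) and median-ratio scaled values (blue squares). Filled symbols passed the limma test: 5 with deposited values and 2 with scaled values. Scaling moved every feature to the right.

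Counted without a model, all 4 high-fat values lay below all 4 ordinary-feed values at 7 of the 17 features, the 5 called ones, Sdhc intron 3 and Ndufa6, where 17.3% of all tested features did so. The filter favours this pattern at Sdhc intron 3 and at Atp5b, the 2 members that reach 1 FPKM in 4 libraries only when ordinary-feed libraries are counted. Neither of these was called, and among the other 15 tested members the pattern held at 6. The share of all features after the same exclusion was not counted. With scaled values all 4 high-fat values lay below at 3 of the 17, Sdha exon 6, Sdhc intron 5 and Atp5c1, where 7.89% of all did. None of the 17 lay wholly above, and the share of all features that did was not counted. Per complex, the median log2 fold change with deposited values was -0.04 over 8 features of complex I, -0.45 over 5 of complex II and -0.60 over 3 of complex V. With scaled values these medians were 0.10, -0.28 and -0.40. Those of complexes II and V include Sdhc intron 3 and Atp5b, the 2 members at which the filter favours lower values on high fat. Features of 1 gene share their source and are not replicates. The difference between complexes was not tested.

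Other genes of the chain were taken as a fixed list of 127 subunits, assembly factors and regulators linked by the same position rule. Listed transcripts exist at 100 of them, and 44 genes had 71 tested features. On high fat 1 of the 71 was higher and 2 were lower, where 2.83% and 11.8% of all tested features were. Their median log2 fold change was -0.06 with deposited and 0.14 with scaled values, against -0.16 and 0.00 for all features. Other genes of complex II gave 1 tested feature, with a log2 fold change of 0.11 with deposited and 0.29 with scaled values. Other genes of complex V gave 9, with medians of -0.05 and 0.14, and none of them was called. NONMMUT140114.1, whose multi-part interval overlaps the complex I subunit gene Ndufs7, was higher, with 0.227, 0.459, 0.249 and 0.812 FPKM on ordinary feed and 1.01, 1.37, 1.09 and 1.19 FPKM on high fat. The groups did not overlap, and the change was 0.61 (SE 0.15, limma adjusted p = 0.0166). Without the fourth high-fat library it was 0.60 (limma adjusted p = 0.0379). Every high-fat value and no ordinary-feed value of this feature reached 1 FPKM, so the filter can favour this pattern.

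Both lower features belong to regulators. Nrf1, the factor that binds the NRF-1 core named above, holds NONMMUT056082.2, with 1.26, 1.83, 1.82 and 1.51 FPKM on ordinary feed and 0.918, 0.949, 0.762 and 0.617 FPKM on high fat. It was lower without overlap, by -0.52 (SE 0.10, limma adjusted p = 0.00864), and by -0.37 (limma adjusted p = 0.0238) with scaled values and -0.47 (limma adjusted p = 0.0207) without the fourth high-fat library. Every ordinary-feed value and no high-fat value of this feature reached 1 FPKM, so the filter can favour this pattern. Ppara, the nuclear receptor that controls hepatic fatty acid oxidation, holds the intronic NONMMUT024512.2, with 10.1, 13.3, 13.0 and 11.1 FPKM on ordinary feed and 10.5, 8.19, 5.98 and 4.06 FPKM on high fat. The groups overlapped at 1 high-fat library, the change was -0.71 (SE 0.22, limma adjusted p = 0.0419), and with scaled values it was not called (limma adjusted p = 0.0922). The Ppara call was lost when any library of these groups other than the first high-fat one was left out, at limma adjusted p-values of 0.0517 to 0.0988, and without the fourth high-fat library the change was -0.50. With scaled values 4 of the 71 were called higher and 1 lower, where 6.03% and 4.94% of all features were.

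One sum over marker features separated the same groups. The summed deposited FPKM of features linked to hepatocyte marker genes was 26.5 to 44.9 with ordinary feed and 45.4 to 62.7 on high fat. These did not overlap and went opposite to the 5 lower members. Such a sum is weighted to its most abundant features and is not a measure of hepatocyte number. Of 11 marker genes 8 had a listed transcript, with 10 tested features of which 3 were called higher and 1 lower, while Alb, Fgb and Tf had none. Summed levels overlapped between those groups for macrophage (0.754 to 4.33 and 1.04 to 1.72), stellate (2.65 to 3.93 and 1.86 to 4.90), endothelial (0.833 to 1.93 and 0.534 to 1.28), cholangiocyte (0.239 to 1.47 and 0.369 to 0.460) and lymphocyte markers (0.736 to 1.43 and 0.615 to 1.49). No listed transcript lies at the adipocyte, muscle, pancreas or red cell markers. The part of these measures in the lower respiratory-chain features was not tested. At the nuclear copy of mitochondrial DNA on chromosome 1, 4 features were tested and none was called (limma adjusted p = 0.649 to 0.758).

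Each drug group was compared with high-fat feed alone. With resveratrol none of the 17 features was called, where 0.0809% of all tested features were, and none had an unadjusted p under 0.05 (lowest limma adjusted p = 0.359). With metformin again none was called, where 0.027% of all were, and 1 had an unadjusted p under 0.05 (lowest limma adjusted p = 0.578). The same limma fit found 1200 and 554 features in all at an unadjusted p under 0.05 in these comparisons.

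The 5 features that were lower on high fat had resveratrol means of 112% to 132% of high fat alone with deposited values and 92.4% to 115% with scaled values. Their metformin means were 102% to 135% and 94.8% to 122% of high fat alone. The 5 were picked as low in these same high-fat libraries, so a group set against those libraries can look higher for that reason alone. Over all tested features the median log2 fold change was 0.13 with resveratrol and 0.07 with metformin in deposited values. With scaled values these medians were -0.004 and -0.0006. None of the differences of the 5 features was called. Sdha exon 10 came nearest, with 2.05, 1.89, 1.75 and 1.79 FPKM under resveratrol, all above the high-fat values, and a log2 fold change of 0.20 (SE 0.11, limma adjusted p = 0.359). Under metformin it measured 2.46, 2.31, 1.58 and 1.71 FPKM, which overlapped high fat, with a change of 0.26 (SE 0.11, limma adjusted p = 0.578). With scaled values these changes were 0.06 and 0.19, and both overlapped.

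Sdha exon 6 measured 1.79, 2.64, 1.96 and 1.46 FPKM under resveratrol and 2.20, 2.12, 1.90 and 1.29 FPKM under metformin. Sdhc intron 5 measured 1.28, 1.81, 0.958 and 1.10 FPKM under resveratrol and 1.33, 1.25, 1.30 and 1.03 FPKM under metformin. Both features overlapped high fat alone with either drug. Atp5c1 measured 2.76, 2.67, 2.74 and 2.19 FPKM under resveratrol and 2.66, 2.99, 2.29 and 1.48 FPKM under metformin. Atp5l measured 1.38, 1.69, 1.70 and 1.23 FPKM under resveratrol and 2.08, 1.84, 1.45 and 1.19 FPKM under metformin. These also overlapped high fat alone, as did the Ndufa6 transcript, with 5.22, 6.47, 4.42 and 3.52 FPKM under resveratrol and 5.96, 4.28, 5.51 and 4.02 FPKM under metformin.

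Resveratrol set against metformin gave no called member, where 0% of all features were called, and none of the 17 had an unadjusted p under 0.05 (471 of all features did). The lowest limma adjusted p among the members was 0.808.

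Each drug group was also set against ordinary feed, a comparison that shares the ordinary-feed libraries with that of high fat alone. Under resveratrol none of the 17 was called, where 0.283% of all features were, while 9 had an unadjusted p under 0.05 (979 of all did). All 9 had negative log2 fold changes, and their lowest limma adjusted p was 0.195, at Atp5l. Sdhc intron 3 and Atp5b are among the 9. Both passed the filter only with ordinary-feed libraries counted, so the filter favours values below ordinary feed at them. Under metformin none was called, where 0.297% of all were, and 5 had an unadjusted p under 0.05 (1488 of all did). Atp5b is among these 5 too. The lowest limma adjusted p was 0.0838, at Atp5c1, whose change was -0.58 (SE 0.16). The call on Atp5c1 was reached with scaled values and without the fourth high-fat library, at -0.46 with an adjusted p of 0.0483 by limma. In that setting calls rose in general, to 175 of 7413 features (118 higher and 57 lower), from 22 with deposited values.

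For the 5 features called lower on high fat, deposited resveratrol means were 65.4% to 75.8% of ordinary feed and metformin means 59.5% to 81.7%. On high fat alone they were 55.2% to 60.6%. With scaled values the ranges overlapped, at 67.9% to 78.9% with resveratrol, 65.5% to 90.5% with metformin and 65.6% to 74.3% on high fat alone. Atp5b under metformin had 0.740, 0.926, 0.708 and 0.832 FPKM, all below ordinary feed, for a change of -0.77 (SE 0.27, limma adjusted p = 0.138). It passed the filter only with ordinary-feed libraries counted and reached 1 FPKM in no metformin library, so the filter favours this pattern. The share of all features with this pattern was not counted. The plot of group means shows the level of each feature relative to ordinary feed.

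**Figure D4:**
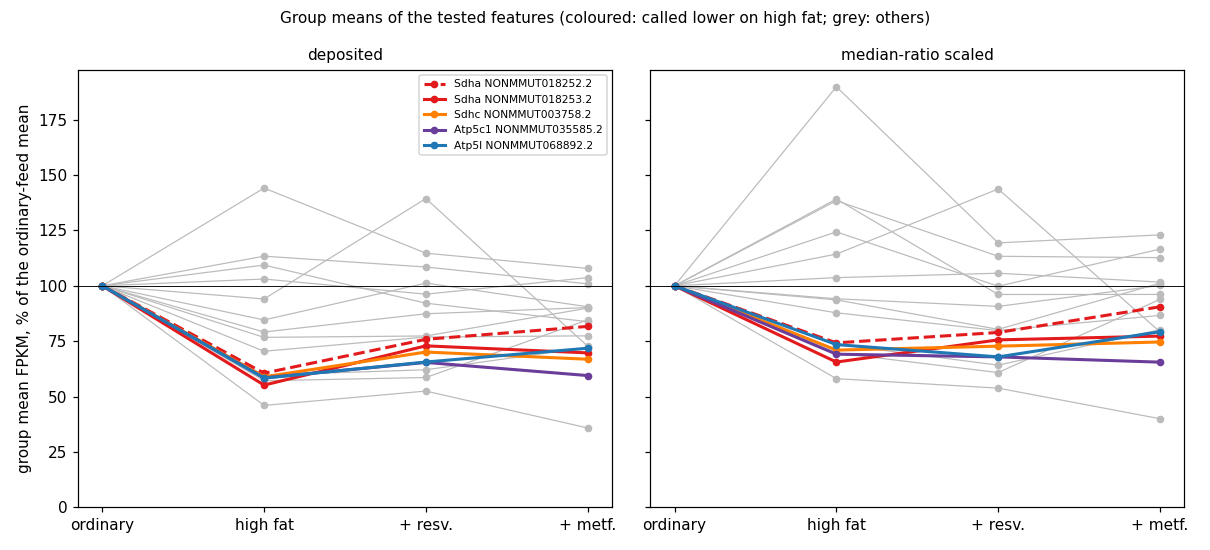
Group mean FPKM of the 17 tested features as a percentage of the ordinary-feed mean (4 libraries per group), for deposited values on the left and median-ratio scaled values on the right. The 5 coloured features, called lower on high fat, stand at 55.2% to 60.6% on high fat with deposited values and at 65.6% to 74.3% with scaled values.

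The members did not move as one across libraries. Over the 16 libraries, the 136 pairs of tested features had Pearson correlations of scaled log2 values from -0.58 to 0.80 with a median of 0.10, and the 10 pairs among the 5 called features from 0.45 to 0.76. These pairs share libraries and group differences, so the values are descriptions. The features whose pattern over 16 libraries was most like that of the Ndufa6 transcript, by Pearson correlation of scaled values, were NONMMUT043762.2 at Rrnad1 (0.87), NONMMUT015983.2 at Bag5 and Apopt1 (0.81) and the intergenic ENSMUSG00000048106.5 (0.81).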

How the data were processed

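The authors deposited FPKM for each listed transcript, separately for every library. The submitters' processing notes name GRCm38 (mm10), Bowtie 0.12.2 and Cufflinks 2.1.1. Which annotation release and filters they used, and how strand was treated, were not given in the sources used here. Multiplied by transcript length, at least 99.96% of a library's values fell on multiples of the value of a single read (tolerance 0.05 of a read), from which totals and reads per transcript were taken. Ensembl transcripts were summed per gene (49988 features), and 7413 features with at least 1 FPKM in at least 4 libraries were tested.

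Tests used the trend option of limma 3.58.1 (R 4.3.3) on log2(FPKM + 1), fitting the 16 libraries together (12 residual degrees of freedom). P-values were adjusted by Benjamini-Hochberg over the 7413 features, with calls at an adjusted p under 0.05. Folds are on that log2 scale and understate changes of low features. The script was tested on simulated data. Scaled values were divided by each library's median ratio to the geometric-mean library. Positions used GENCODE M21 and promoters RefSeq. The members and lists, the naming rule (all tested members, and up to 3 called features in each direction from the other genes) and the alternatives were chosen with earlier results of these data known. Leaving out libraries, other scalings, filters and pseudocounts were tried. A test on the summed level of the members was left out, since they were chosen with results known.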

Additional observations from a re-analysis of the deposited data

Results flagged for a closer look

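In 3 cases a value stood far from the other libraries of their group, in a search of 68 groups of 4 values where chance alone sets apart about 1 group in 20. The Sdha exon 10 feature (NONMMUT018252.2) measured 3.02 FPKM in the second ordinary-feed library against 2.23 to 2.31 in the other three. The Atp5c1 feature (NONMMUT035585.2) measured 2.19 FPKM in the fourth resveratrol library against 2.67 to 2.76 in the others. The Ndufv2 intron 1 feature (NONMMUT030286.2) measured 0.289 FPKM in the third metformin library, on 10 reads, against 1.27 to 1.36 in the others.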

How the results depend on the processing

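For high fat against ordinary feed, 5 members were called with deposited values. The count was 2 with median-ratio scaling, 2 with quantile normalization, 1 with a filter at 0.1 FPKM, 0 with no filter and 3 when the 2 groups were fitted alone. Calls over all features also fell, from 875 lower with deposited values to 366, 383, 397 of 28730 tested, 200 of 49988 tested and 341 in those settings. Leaving out 1 library gave 2 to 5, namely 2 without the second ordinary-feed library, 3 without the second high-fat library and 3 without the fourth. Over all features those named fits called 419, 571 and 422 lower, also fewer than the 875. Scaling without the fourth high-fat library gave 1, where 220 of all features were called lower. In metformin against ordinary feed that setting gave 1 where the deposited values gave 0, while calls over all features went from 22 to 175. The other 4 comparisons gave 0 members in every setting run. No called change reversed its direction. Of 17 alternatives, the calls held in 13 (Sdha exon 10), 12 (Sdha exon 6), 12 (Sdhc), 9 (Atp5c1) and 8 (Atp5l). The filters change how many features are tested, and other causes were not tested. Taking overlap alone, without the 5 kb margin, left 25 of the 37 members. The edgeR and DESeq2 alternatives were not run, since reads recovered from FPKM are not the deposited counts those tests need. Depth limits features with few reads, such as Ndufs4 exon 1 with 3 to 35 reads per library. No paired analysis was possible because the labels give no replicate numbers shared between groups.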
